A study of Mus musculus with 28 samples.

Results

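Calmodulin and the calmodulin-dependent signalling genes listed here were 9 of the 23995 genes given in each deposited file. These genes were chosen by name, with earlier results of these data known. They were Calm2 and Calm3, which encode calmodulin, the CaM kinase II subunit genes Camk2a, Camk2b, Camk2d and Camk2g, the kinase-like gene Camkv, and the calcineurin genes Ppp3ca and Ppp3r1. Ribosome-bound mRNA was purified by axon-TRAP from C57BL/6 mice that carried the RiboTag allele, an Rpl22 ribosomal protein gene whose HA-tagged exon is switched on by Cre. Cre-positive animals also carried Pax6-alpha-Cre, which is active in progenitors of the peripheral retina, so that retinal ganglion cells (RGCs), other retinal neurons and, in the superior colliculus (SC), the RGC axons hold tagged ribosomes. The 24 libraries with FPKM fell into 12 groups of 2, covering 4 stages from E17.5 through P0.5 and P7.5 to the adult: SC of Cre-positive animals, SC of Cre-negative littermates, which have the RiboTag allele without Cre and give the background of the purification, and retina, taken as whole eyes of Cre-positive animals. Read counts came from 4 more adult libraries, in which ribosome run-off was or was not allowed before purification of Cre-positive SC or retina, 1 library of each. Each library was a pool of tissue from several animals, and nothing in the labels says how the replicates were separated, so p-values measure only the spread between these libraries.

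Calmodulin is a small protein that binds calcium at EF-hand loops and, once loaded, switches on its target enzymes. CaM kinase II is a holoenzyme built from alpha, beta, delta and gamma subunits that phosphorylates synaptic and cytoskeletal proteins, and calcineurin is the calmodulin-dependent phosphatase that opposes many kinases, with Ppp3ca giving a catalytic and Ppp3r1 the regulatory subunit. Camkv resembles a CaM kinase but lacks kinase activity and is known as a vesicle-associated protein of dendritic spines.

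Calm2 and Calm3 encode an identical protein from different coding sequences, so that reads within the coding sequence can be told apart where they span a difference. The coding sequence from base 61 to base 90, the start of the first calcium-binding loop, shows this. The windows are from GENCODE transcripts on GRCm38 and lie in exon 3 of each gene, at chr17:87435879-87435908 on the minus strand for Calm2 and chr7:16917673-16917702 on the minus strand for Calm3. They read 5′ to 3′, and capitals mark the 7 of 30 positions at which the genes differed.
Calm2: gacaaggaCggGgatggGacAatAacAacA
Calm3: gacaaggaTggAgatggCacCatTacCacC
Over the 450 bases of coding sequence, Calm2 and Calm3 differed at 78 positions and were 82.7% identical, and the longest stretch they shared was 17 bases. Among the CaM kinase II genes the longest shared stretch of coding sequence was 32 bases, between Camk2a and Camk2b. How reads that fit more than 1 gene were shared out is not given in the sources used here, so the split between these genes holds some uncertainty. Of the other members, 6 are located here: chr11:5969644-6066362 (Camk2b), chr3:126596302-126846326 (Camk2d), chr14:20734875-20794088 (Camk2g), chr9:107935674-107949691 (Camkv), chr3:136670124-136937727 (Ppp3ca) and chr11:17159263-17200375 (Ppp3r1).

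The libraries differed widely in depth and in how many genes they held. Between 1162 and 8769 genes were above 0 FPKM in a library. The step between the lowest values put the depth at roughly 519000 to 14600000 fragments, with the adult SC libraries at 561000 to 2260000, and these figures are estimates because no totals were used here. An exact 0 may also be a failed estimate, since genes that every cell uses were listed at 0 in many libraries (Gapdh in 18 of 24, Pgk1 in 15 of 24). Values are therefore given library by library, replicate 1 first. In bulk tissue, fewer cells or axons of a type and less mRNA per cell cannot be told apart.

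The members ranged from 0 to 1205 FPKM. Ppp3ca was the highest of the 9 in 11 of the 24 libraries, Calm3 in 6 and Camk2d in 4. Calm3 was above 0 in all 24 libraries, from 0.884 to 553 FPKM with a median of 53.9. Camk2d was also above 0 throughout, from 1.20 to 1205 FPKM. At the other end, Camk2a reached 1 FPKM in 2 libraries and Ppp3r1 in 5.

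**Figure D1:**
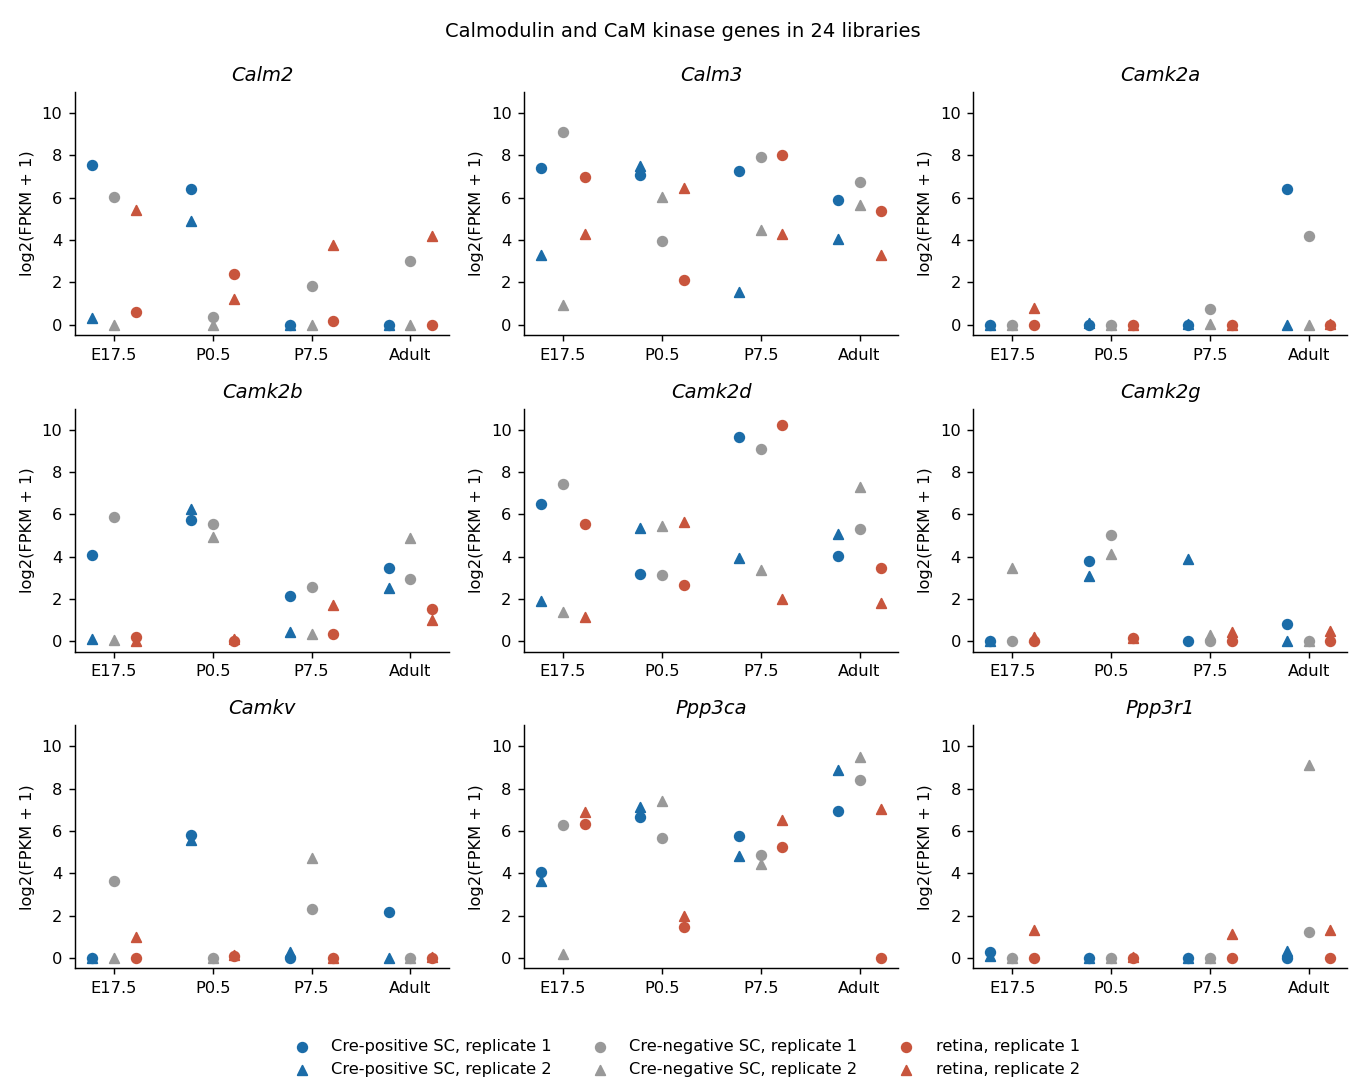
FPKM of each gene on a log2(FPKM + 1) axis by stage, with 1 point per library, circles for replicate 1 and triangles for replicate 2, in blue for Cre-positive SC, grey for Cre-negative SC and red for retina. Camkv at P0.5 stands at 54.5 and 47.3 FPKM in Cre-positive SC with both Cre-negative libraries listed at 0, while for Calm3 and Camk2d the replicates of 1 group lie farther apart than the groups do.

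Comparing Cre-positive with Cre-negative SC asks which mRNAs were bound to tagged ribosomes in axons beyond the background. At P0.5, when RGC axons branch in the SC, Camkv was higher in Cre-positive SC and was the only member that passed the test, and none fell. Camkv was at 54.5 and 47.3 FPKM in Cre-positive SC and was listed at 0 in both Cre-negative libraries, where 3 fragments at the estimated depths would be 0.167 and 0.0952 FPKM. The 4 libraries were of like estimated depth, 6790000 to 12000000 fragments, but not alike in genes listed. The Cre-positive libraries held 4620 and 4923 genes above 0 and the Cre-negative libraries 2162 and 2546. The part of this gap in the Camkv values of 0 was not tested. The difference of mean log2(FPKM + 1) was 5.69 ± 1.24 (SE, limma adjusted p = 0.00467), which has no meaning as a fold because 1 group is at 0. Without Cre-positive replicate 1 the adjusted p was 0.0688, at a difference of 5.59.

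The call of 1 of 9 members has to be read against the whole table, in which 32.5% of 5983 genes were called at P0.5, 1684 higher and 260 lower. The members' median difference was 0.35 on the log2(FPKM + 1) scale and that of all genes tested 0.78. All 9 members entered this fit of the 16 SC libraries, Camk2a through adult libraries only and Ppp3r1 through adult Cre-negative libraries only.

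Calm2 had the same order at P0.5 and did not pass. It was at 83.2 and 28.9 FPKM in Cre-positive SC and at 0.285 and 0 in Cre-negative SC. The difference was 5.47 ± 2.33 (SE) on the log2(FPKM + 1) scale, with an adjusted p of 0.106 by limma. It passed in 2 of 7 alternative settings, when the 4 libraries of the stage were fitted alone (limma adjusted p = 0.0051) and with a replicate block. Replicate deviations of Cre-positive and Cre-negative SC correlated at 0.41 at this stage. The main fit leaves any gap shared by a replicate number in the SE, for every member.

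Calm3 and Camk2b did not pass at P0.5 either, with differences smaller than their errors. Calm3 was at 133 and 182 FPKM in Cre-positive SC and at 14.6 and 64.7 in Cre-negative SC, a difference of 2.29 ± 2.67 (SE, log2 scale). Camk2b, the actin-binding subunit of CaM kinase II, was at 52.2 and 76.5 FPKM against 45.7 and 29.6. Its difference was 0.76 ± 1.90 (SE, log2 scale), so most of its level was present in the background.

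For the remaining kinase and calcineurin subunits at P0.5, no difference from background passed the test. Camk2d was at 8.02 and 39.3 FPKM in Cre-positive and at 7.91 and 42.9 in Cre-negative SC, so that libraries with the same number were almost alike. Camk2g was lower in Cre-positive SC, at 12.7 and 7.48 FPKM against 31.7 and 16.5, with a difference of -1.15 ± 1.33 (SE, log2 scale). Ppp3ca was at 102 and 138 FPKM against 49.5 and 172, and Ppp3r1 was listed at 0 in all 4.

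Cell type markers moved with Cre at P0.5 too. Of the 7 RGC markers, 4 were above 0 in Cre-positive SC and 3 in Cre-negative SC, with summed levels of 290 and 109 FPKM against 710 and 194, most of it Pou4f1. Slc17a6, the vesicular glutamate transporter of RGCs, was at 12.2 and 5.13 FPKM against 1.46 and 0.223, and the neurofilament gene Nefl at 47.5 and 17.54 against 4.22 and 2.82, while Thy1, Rbpms and Sncg were listed at 0 in all 4 libraries. The 5 astrocyte markers summed to 51.9 and 42.1 FPKM in Cre-positive SC (3 above 0, Gfap and Aqp4 at 0) and to 5.76 and 10.6 in Cre-negative SC (2 above 0). Of the 3 microglial markers, C1qa was at 77.0 and 43.2 FPKM in Cre-negative SC but listed at 0 in both Cre-positive libraries, and the inhibitory neuron markers were at 0 in all 4. Their part in the Camkv result was not tested.

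At the other stages no member was called between Cre-positive and Cre-negative SC by limma, the one tool run. At E17.5 the share called among all genes was 1.57% and no member had an unadjusted p under 0.05. At P7.5 it was 0% of genes, and Camkv alone had an unadjusted p under 0.05. At this stage Camkv lay the other way, at 0 and 0.225 FPKM in Cre-positive SC and at 3.90 and 25.8 in Cre-negative SC (difference -3.37 ± 1.24 SE, adjusted p = 1). In the adult 0.15% of genes were called, and Ppp3r1 alone of the members had an unadjusted p under 0.05, with an adjusted p of 1. Ppp3r1 was at 0 and 0.274 FPKM in adult Cre-positive SC and at 1.35 and 564 in adult Cre-negative SC. Its difference thus rested on 1 background library, which held 1162 genes above 0. Ppp3r1 entered the fit through adult Cre-negative SC alone, the group where it was high, so its unadjusted p is no support.

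The change of the Cre difference between stages was tested directly, and Camkv was the only member to pass. The Cre difference at P0.5 was above that at E17.5 by 7.52 ± 1.75 (SE, adjusted p = 0.00878) on the log2(FPKM + 1) scale, where 27.1% of genes were called. The Cre difference at P7.5 was below that at P0.5, by -9.07 ± 1.75 (SE, adjusted p = 0.0036), where 21.5% of genes were called. At E17.5 Camkv was at 0 in both Cre-positive libraries and at 11.5 and 0 FPKM in Cre-negative SC. Without P0.5 Cre-positive replicate 1 these adjusted p-values were 0.072 and 0.0822. The 2 tests share the P0.5 libraries and are not independent.

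**Figure D2:**
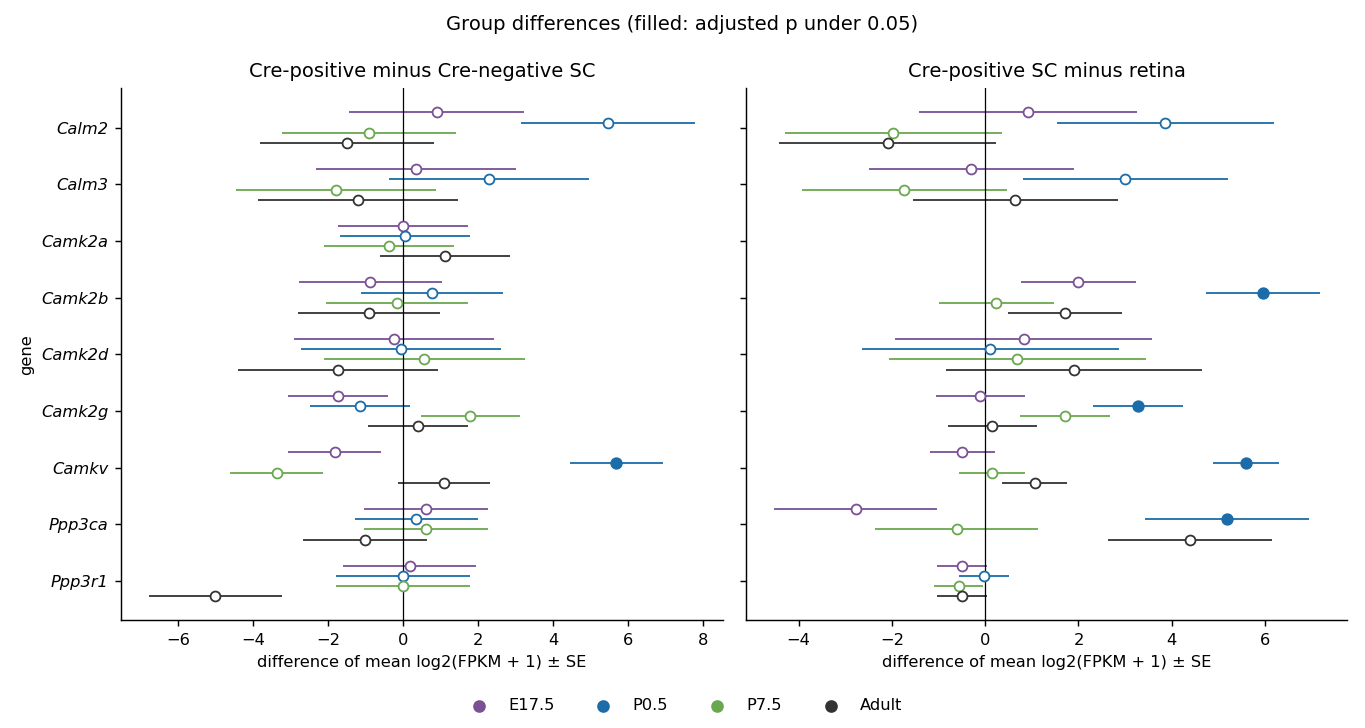
Differences of mean log2(FPKM + 1) with their SE for each gene and stage, Cre-positive minus Cre-negative SC on the left and Cre-positive SC minus retina on the right, with filled points for an adjusted p under 0.05. Filled points occur only at P0.5, for Camkv on the left and for Camk2b, Camk2g, Camkv and Ppp3ca on the right, where Camk2a was not fitted.

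Within Cre-positive SC the stages ask how axonal translation changed from elongation to maturity. Camkv rose from E17.5 to P0.5 and fell from P0.5 to P7.5, and no other member passed either step. It went from 0 and 0 FPKM at E17.5 to 54.5 and 47.3 at P0.5, then to 0 and 0.225 at P7.5 and 3.55 and 0 in the adult. The rise was 5.69 ± 1.24 (SE, limma adjusted p = 0.00526), with 26.9% of genes called in that step. The fall was -5.55 ± 1.24 (SE, limma adjusted p = 0.00594), with 29.8% of genes called. Without P0.5 replicate 1 or replicate 2 neither step passed, with adjusted p-values of 0.0969 and 0.0542 for the rise and 0.094 and 0.0534 for the fall.

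Calm2 was listed above 0 in Cre-positive SC at the early stages and at 0 later. It was at 185 and 0.225 FPKM at E17.5 and at 83.2 and 28.9 at P0.5, and it was at 0 in the 4 libraries of P7.5 and the adult. For P7.5 minus P0.5 the adjusted p was 0.0984. For late stages, the mean of P7.5 and adult, minus early stages, the mean of E17.5 and P0.5, the difference was -4.78 ± 1.65 (SE, log2 scale) with an adjusted p of 0.055, and without E17.5 replicate 2 it was -6.59 with an adjusted p of 0.00692. No member passed in this comparison, in which 26.5% of genes were called and Calm2 and Camkv had an unadjusted p under 0.05. In the adult libraries 3 fragments of Calm2 would be 4.55 and 2.61 FPKM, so a low level there could not have been seen.

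Calm3 did not follow Calm2. In Cre-positive SC it was at 169 and 8.79 FPKM at E17.5, 133 and 182 at P0.5, 153 and 1.95 at P7.5 and 58.8 and 15.7 in the adult. Every stage held a library above 50 FPKM, and the differences between stages were smaller than the gaps between replicates at E17.5 and P7.5.

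Camk2a, the alpha subunit that dominates in the mature forebrain, passed 1 FPKM only in adult SC. It was below 1 FPKM in all 18 libraries of the earlier stages, at 85.0 and 0 FPKM in adult Cre-positive SC, at 17.2 and 0 in adult Cre-negative SC and at 0 and 0.0307 in adult retina. The step from P7.5 to adult was 3.20 ± 1.74 (SE, adjusted p = 1), with 0.0836% of genes called, no member called and none with an unadjusted p under 0.05. In each SC group it was replicate 2, with 1640 and 1162 genes above 0, that lacked it.

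Camk2b and Camk2g both had their highest Cre-positive mean at P0.5, at 64.3 and 10.1 FPKM. Their Cre-negative means were also highest at P0.5, at 37.6 and 24.1 FPKM. In Cre-positive SC Camk2b was at 16.2 and 0.061 FPKM at E17.5, 52.2 and 76.5 at P0.5, 3.34 and 0.362 at P7.5 and 10.02 and 4.79 in the adult. The fall to P7.5 was -4.72 ± 1.90 (SE, adjusted p = 0.0901). Camk2g in Cre-positive SC was at 0 in both E17.5 libraries, at 12.7 and 7.48 FPKM at P0.5, at 0 and 13.7 at P7.5 and at 0.738 and 0 in the adult. No step passed.

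The composition of the CaM kinase II genes varied by stage and source. Camk2d held the largest share of the summed FPKM of the 4 genes in 19 of 24 libraries, and Camk2b led in 3. At P0.5 Camk2b made up 71.6% and 62.0% in Cre-positive SC, 53.6% and 33.2% in Cre-negative SC, and 0% and 0.149% in retina, where Camk2d made up 97.8% and 99.6%. In adult Cre-positive SC Camk2a made up 76.5% of replicate 1 and 0% of replicate 2, whose leading gene was Camk2d with 87.0%. These shares are descriptions of single libraries and were not tested.

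**Figure D3:**
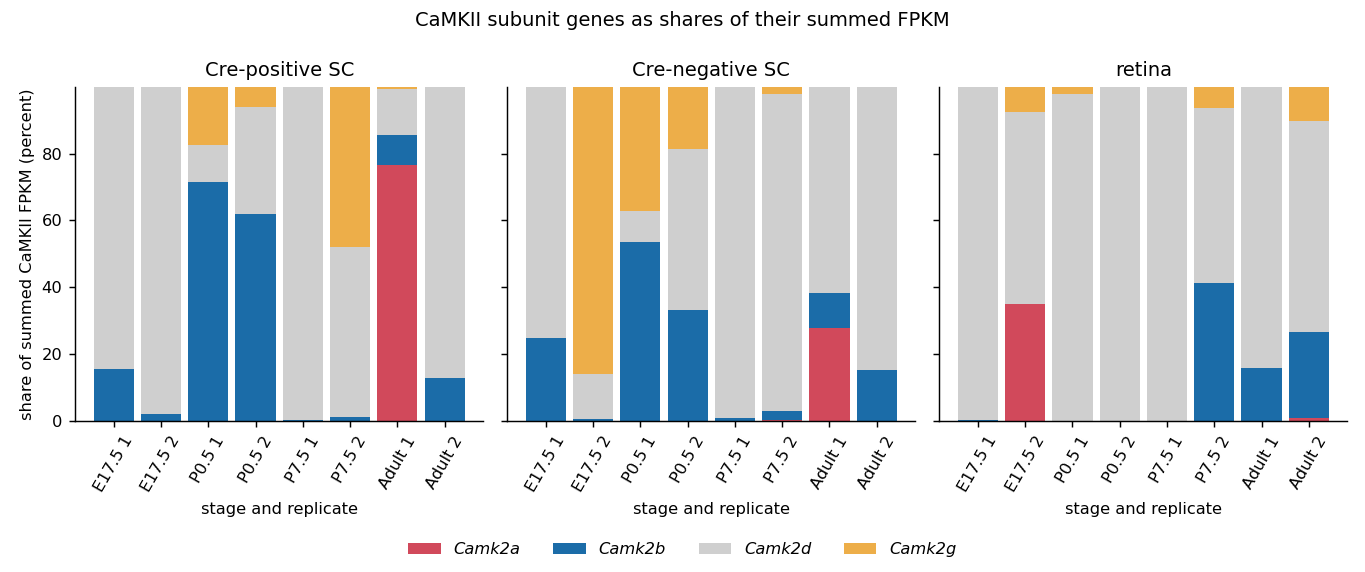
Share of each CaM kinase II gene in the summed FPKM of Camk2a, Camk2b, Camk2d and Camk2g, in percent, with 1 bar per library, by source, stage and replicate. Camk2d fills most bars, and Camk2b makes up 71.6% and 62.0% in Cre-positive SC at P0.5 while Camk2a makes up 76.5% in 1 adult library.

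Ppp3ca, the catalytic subunit gene of calcineurin, was high in adult SC whether Cre was present or not. In Cre-positive SC it was at 15.7 and 11.3 FPKM at E17.5, 102 and 138 at P0.5, 52.9 and 26.8 at P7.5 and 123 and 475 in the adult. In Cre-negative SC it was at 77.8 and 0.137, 49.5 and 172, 28.7 and 20.7, and 335 and 726 FPKM at the same stages. The adult Cre difference was -1.02 ± 1.65 (SE, log2 scale), and oligodendrocyte markers summed to 735 and 990 FPKM in adult Cre-positive SC and 184 and 4148 in adult Cre-negative SC, with 3 of 5 above 0 and Mog and Mag at 0 in both groups; their part in the adult level was not tested. Ppp3r1, the partner subunit, stayed at or below 1.53 FPKM in 23 of the 24 libraries. The mRNAs of the calcineurin subunits were thus listed at very unequal levels.

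In Cre-negative SC, where any change is one of background, no member passed between late and early stages, with 5% of genes called and Camk2g alone at an unadjusted p under 0.05 (adjusted p = 0.106). Without E17.5 Cre-negative replicate 1, Camk2g and Ppp3ca passed. No member passed the test of whether the late minus early change differed between Cre-positive and Cre-negative SC, with 13.8% of genes called and Camkv alone at an unadjusted p under 0.05 (adjusted p = 0.151). In retina, where 6 members entered the fit, none passed and none had an unadjusted p under 0.05, with 0.956% of genes called.

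Cre-positive SC against retina compares ribosome-bound mRNA of the axons with that of the cell bodies and the rest of the eye. At P0.5, Camkv, Camk2b, Camk2g and Ppp3ca were higher in Cre-positive SC, 4 of the 8 members that entered this fit, against 34.7% of 6321 genes called and 32.7% called higher. Of these 4, Camkv and Camk2g reached 1 FPKM in no retina library, with highest values of 0.963 and 0.402, and so entered the fit through Cre-positive SC alone, the group where they are high. The count is therefore a description and no support for a direction of the members. The SC libraries went through more rounds of PCR than the eye libraries, and the eye libraries held lens mRNA, with the 4 lens markers at a summed 280 and 165 FPKM in P0.5 retina and 0 and 1.38 in P0.5 Cre-positive SC. These differences between the sources cannot be told apart from that of axon and cell body.

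Camkv was at 0.0491 and 0.096 FPKM in P0.5 retina, below the level of 3 fragments, against 54.5 and 47.3 in the axons, a difference of 5.59 ± 0.70 (SE, adjusted p = 8.69e-05) in a gene that entered through Cre-positive SC alone. Camk2b was at 0 and 0.0725 FPKM in P0.5 retina against 52.2 and 76.5, a difference of 5.95 ± 1.23 (SE, adjusted p = 0.00263). Camkv and Camk2b held their calls under every alternative run for this comparison. Cre-negative SC held Camk2b at 45.7 and 29.6 FPKM at this stage and Camkv at 0, so for Camk2b the SC background lay just below the Cre-positive libraries and far above retina.

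Camk2g was at 0.123 and 0.107 FPKM in P0.5 retina against 12.7 and 7.48, a difference of 3.27 ± 0.96 (SE, adjusted p = 0.0196), and it too entered through Cre-positive SC alone. The call was lost without Cre-positive replicate 1 (adjusted p = 0.142), without retina replicate 1 (0.0857) or without retina replicate 2 (0.0891). Ppp3ca was at 1.73 and 2.98 FPKM in P0.5 retina against 102 and 138, a difference of 5.18 ± 1.75 (SE, adjusted p = 0.0391), and it was lost without any 1 of the 4 libraries, with adjusted p-values of 0.143, 0.142, 0.153 and 0.116. The SC background also lay above retina for these genes, with Camk2g at 31.7 and 16.5 FPKM and Ppp3ca at 49.5 and 172 in Cre-negative SC.

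The other members were not separable from retina at P0.5. Calm2 was at 4.17 and 1.30 FPKM in retina and Calm3 at 3.31 and 87.3, with differences of 3.86 ± 2.33 and 3.01 ± 2.199 (SE, log2 scale). Camk2d was at 5.33 and 48.4 FPKM in retina, close to the SC library of the same number in each case.

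At the other stages no member was called against retina. The shares of all genes called were 1.31% (E17.5), 0.0158% (P7.5) and 0.0949% (adult), and adult Ppp3ca was the only member with an unadjusted p under 0.05. Ppp3ca was at 0 and 133 FPKM in adult retina against 123 and 475 in adult Cre-positive SC. Retina at E17.5 held it at 79.1 and 120 FPKM, above the 15.7 and 11.3 of Cre-positive SC (difference -2.78 ± 1.75 SE, log2 scale, adjusted p = 0.598). Without E17.5 Cre-positive replicate 2, Camk2b passed at E17.5, and without P7.5 Cre-positive replicate 1, Camk2g passed at P7.5.

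For Calm3 and Camk2d, libraries with the same replicate number resembled each other across Cre and source. At P7.5, Camk2d was at 797, 538 and 1205 FPKM in replicate 1 of the Cre-positive, the Cre-negative and the retina group and at 14.5, 9.44 and 2.96 in replicate 2. Calm3 was at 153, 242 and 255 FPKM in these replicate 1 libraries and at 1.95, 21.2 and 18.4 in replicate 2. Both genes were at least 4-fold higher in replicate 1 on the FPKM + 1 scale in all 3 sources at P7.5, as were 1.65% of 7193 genes, and again at E17.5, as were 0.987%. The order turned at P0.5 for Camk2d, which was at least 4-fold higher in replicate 2 in all 3 sources, as were 0.556% of genes. In the adult no member moved this way, with 0.139% of genes higher in replicate 1 and 0.0556% in replicate 2. At E17.5 1.95% and at P7.5 1.15% of genes were higher in replicate 2 throughout, and at P0.5 0.0278% in replicate 1, with no member among them.

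Of 38 other genes of calmodulin-dependent signalling, 21 entered the fit of the SC libraries and 6 were listed at 0 in all 24 libraries. At P0.5, 6 of the 21 were higher in Cre-positive than in Cre-negative SC, where 28.1% of all genes were, and 1 was lower, where 4.35% were. Of the 6, Camk4 and Rcan3 reached 1 FPKM in no Cre-negative library, and the lower one, Pcp4, reached it in no Cre-positive library, so these 3 entered only through the source where they are high and their calls are no support. Camk4, a kinase of calcium-dependent transcription, was at 1.10 and 1.21 FPKM against 0 and 0 (difference 1.11, adjusted p = 0.000489), and the calmodulin-binding protein gene Nrgn was at 14.4 and 23.5 FPKM against 0 and 0 (4.28, adjusted p = 0.00109). Pcp4, which also binds calmodulin, was at 0 and 0 FPKM against 149 and 136 (-7.16, adjusted p = 0.00161). In Cre-positive SC 4 of the 21 rose from E17.5 to P0.5, led by Camk4, Nrgn and Camk1, against 25.1% of all genes, and none fell. From P0.5 to P7.5, 7 of the 21 fell, led by Camk4, Nrgn and Camk2n2, against 29.2% of all genes, and none rose. From early to late stages 7 fell, led by Camk4, Gap43 and Camk2n2, against 25.8%, and the CaM kinase II inhibitor gene Camk2n1 rose, against 0.719%. Camk4 reached 1 FPKM in the P0.5 Cre-positive libraries alone and entered the fit through them, so its place in these steps is a description. Among SC libraries Gap43, Adcy1, Camk1 and Rcan3 reached 1 FPKM only at E17.5 and P0.5. They entered the fit through the early stages, so their falls are descriptions too, and the counts of falls are no support.

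Against retina at P0.5, 9 of the 19 genes of this list in the fit were higher in Cre-positive SC, led by Nrgn, Camkk2 and Camk2n2, against 32.7% of all genes, and none was lower, against 2.01%. Of the 9, Camk4, Camkk2, Nfatc2 and Nrgn reached 1 FPKM in no retina library (highest Camkk2 0.846 and Nrgn 0.279) and entered through Cre-positive SC alone, so the count is no support for a direction. Nrgn was at 0 and 0.162 FPKM in P0.5 retina.

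The gene whose group means ran closest to those of each member was found by the root mean square difference of centred log2(FPKM + 1) means over the 12 groups, among 3286 genes. For Camkv it was Dbndd2, at 0.44 against a spread of 1.73 in Camkv itself, and Dbndd2 was at 34.1 and 11.8 FPKM in P0.5 Cre-positive SC and at 0 in both P0.5 Cre-negative libraries. For Calm2 it was Psmc3 (0.47 against 1.63), for Camk2g Sucla2 (0.35 against 1.47), for Camk2a Smad7 (0.38 against 0.99) and for Ppp3r1 Mrpl4 (0.42 against 1.40). The match of Ppp3r1 rests mainly on 1 library, adult Cre-negative replicate 2, at 564 FPKM for Ppp3r1 and 1440 for Mrpl4. The nearest genes were less alike for Calm3 (Tox4, 0.60 against 0.88), Camk2b (Cnnm3, 0.71 against 1.83), Camk2d (Gal3st3, 0.74 against 1.24) and Ppp3ca (Zer1, 1.32 against 2.02). These are descriptions over group means of 2 libraries each.

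Run-off asks whether an mRNA was being translated. Ribosomes that complete elongation release their mRNA before the purification, while mRNA held by stalled ribosomes stays. Background mRNA bound without tagged ribosomes can stay too. No Cre-negative library was made with run-off, so stalled mRNA and background cannot be told apart here. Reads on genes numbered 3262914 without and 349395 with run-off in the SC libraries, or 10.7% as many. In the retina libraries they numbered 4686284 and 315009, or 6.72% as many. The part of amplification and sequencing depth in these totals was not tested, and percentages left below are of reads as counted. There was 1 library of each kind, so no test can be made, and intervals cover counting error only. Fewer reads with run-off were found for 9 of 9 members in SC and 9 of 9 in retina, where 84.9% and 92.1% of all genes with reads had fewer. A gene with at least 10 reads without run-off was called lower when its share of the library fell at least 2-fold, with counts below 3 set to 3. By this rule 4 of 8 members were lower in SC, against 53.5% of 4010 genes, and 3 of 9 in retina, against 14.8% of 6674 genes. With few reads a gene could not be called lower even if run-off left none. This fixed the outcome in advance for Calm2 in SC (20 reads) and for Camk2a (15) and Ppp3r1 (48) in retina. Such genes are also counted among all genes tested.

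The CaM kinase II genes differed in the SC run-off library. Camk2b went from 589 reads to 1, leaving 0.17% (exact 95% interval 0.00429 to 0.95). Camk2g went from 477 reads to 0 and Camk2d from 129 to 0, shares of the library 17.03-fold and 4.604-fold lower with 0 set to 3. Camk2a went the other way in share, from 345 reads to 180, which left 52.2% (exact 95% interval 43.3 to 62.7) where the library total was 10.7% of that without run-off. Its interval did not meet those of Camk2b, Camk2d (upper bound 2.90) or Camk2g (upper bound 0.776). These intervals cover counting error alone, on reads amplified by PCR without molecular identifiers, and not the spread between libraries. In the adult libraries with FPKM, Camk2a was at 85.0 and 0 in Cre-positive SC and at 17.2 and 0 in Cre-negative SC. The part of background in the reads left was not tested.

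Camkv was among the genes lost more than its library. In SC it fell from 1165 reads to 49, leaving 4.21% (exact 95% interval 3.09 to 5.598). In retina it went from 187 reads to 0, a share 4.19-fold lower with 0 set to 3. Without run-off, Camkv was at 357 CPM (reads scaled to a common library total) in the SC library and 39.9 in the retina library, whereas the adult libraries with FPKM listed it at 3.55 and 0 in Cre-positive SC.

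Measured against library totals, the calmodulin and calcineurin genes kept nearer to the library as a whole. Among genes with at least 10 reads in both libraries, the median gene kept 18.0% in SC and 19.1% in retina. Against that median Calm3 lay well below and Ppp3ca in SC close to it, so their place depends on the scaling. In SC, Calm3 went from 3558 reads to 211, leaving 5.93% (exact 95% interval 5.14 to 6.82), and Ppp3ca from 919 to 158, leaving 17.2% (14.4 to 20.4), above the 10.7% of all reads. Calm2 had 20 reads and 0, and Ppp3r1 4 and 0, too few to say how much was left. In retina, Calm2 went from 1090 reads to 44, leaving 4.04% (2.92 to 5.46), and Calm3 from 212 to 15, leaving 7.08% (3.89 to 11.9).

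Retina repeated part of the SC order. Camk2b went from 117 reads to 1 and Camk2g from 119 to 0, while Camk2d, lost in SC, kept 13 of 183 reads or 7.10% (exact 95% interval 3.71 to 12.5). Ppp3ca kept 43 of 310 or 13.9% (9.84 to 19.1), again above its library total but below the median gene at 19.1%. Camk2a had 15 reads and 1, and Ppp3r1 48 and 0. In the single libraries without run-off, Calm2 was at 6.13 CPM in SC and 233 in retina, and Calm3 at 1090 CPM in SC and 45.2 in retina. The adult libraries with FPKM did not separate Calm3, at 58.8 and 15.7 in Cre-positive SC and 40.9 and 8.80 in retina. There Calm2 was at 0 and 0 in Cre-positive SC and at 0 and 17.1 in retina. Of the 38 other genes of the pathway, 10 of 19 tested were lower in SC, against 53.5% of all genes, and 3 of 22 in retina, against 14.8%. These counts too include genes with too few reads to be called lower.

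**Figure D4:**
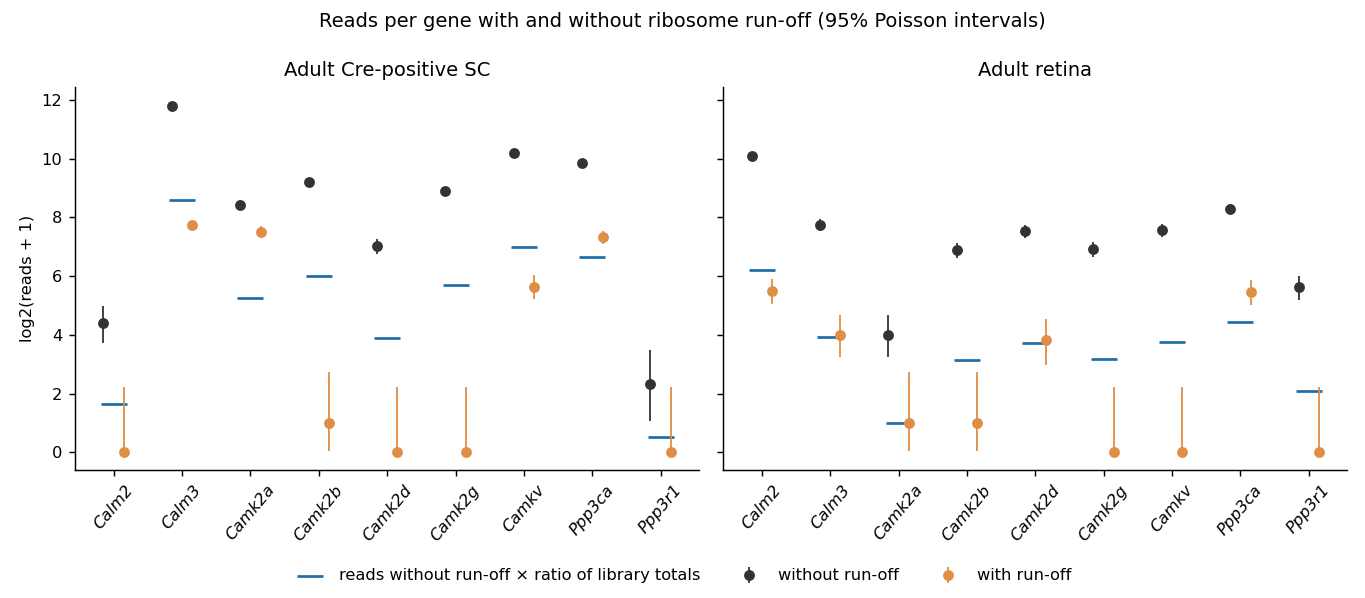
Reads on each gene, as log2(reads + 1) with exact 95% Poisson intervals, in the adult Cre-positive SC and retina libraries without run-off (black) and with run-off (orange). Blue dashes show the reads a gene would keep if it fell with its library total, and in SC Camk2b (1 read), Camk2d (0) and Camk2g (0) lie below the dash while Camk2a (180) lies above it.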

How the data were processed

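The authors mapped reads to mm10 with TopHat2 2.0.12 and deposited FPKM per gene symbol from Cufflinks 2.2.1 for 24 libraries; the gene annotation is not given in the sources used here. The run-off files, 4 in number, hold raw HTSeq 0.6.1p1 counts per gene as the authors deposited them. cDNA was amplified by PCR without molecular identifiers. The study compared groups with NOISeq on counts; because the 24 files hold FPKM, log2(FPKM + 1) was fitted in limma 3.58.1 (R 4.3.3), moderated robustly and with an intensity trend, over genes at 1 FPKM or more in at least 2 libraries of the fit. The 16 SC libraries, the 8 retina libraries and the 16 Cre-positive SC and retina libraries were fitted separately. Tests are two-sided, with Benjamini-Hochberg adjustment over all genes tested and a threshold of 0.05. In all, 4 genes with a missing entry were left out, none a member. The fits were tested on simulated data. Run-off reads were compared as shares of the library total, with exact Poisson and binomial intervals. Depth was estimated from the lowest FPKM steps of genes with 1 annotated transcript. Locations and coding sequences are from GENCODE on GRCm38.

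The members, the pathway list, the marker lists and the tests were chosen with earlier results of these data known. All members are named with their values, and for each member the most alike gene. Of the pathway list, up to 3 called genes with the smallest p in each contrast are named. Camk2n1, Adcy1, Rcan3, Nfatc2 and the genes of general use listed at 0 fall outside these rules and were named after their values were seen. One gene of the pathway list is not reported here. Alternatives were a pseudocount of 0.1, no filter, median-ratio scaling, moderation without trend, a replicate block, single-stage fits, leaving out each library, and, chosen after the data were seen, leaving out adult libraries with under 2500 genes above 0.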

Additional observations from a re-analysis of the deposited data

Results flagged for a closer look

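The Cre difference of Camkv changed between stages in 2 tested comparisons. It was higher at P0.5 than at E17.5 by 7.52 on the log2(FPKM + 1) scale and changed by -9.07 from P0.5 to P7.5. Camkv was above background in both P0.5 libraries and below it in both P7.5 libraries, where the Cre-negative libraries held 3.90 and 25.8 FPKM. Both comparisons draw on the same P0.5 libraries, and neither passed without P0.5 Cre-positive replicate 1.

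The Cre difference of Ppp3r1 was 0.17 at E17.5 and -5.01 in the adult, on the log2(FPKM + 1) scale, and the difference between these stages was not tested. At E17.5 the Cre-positive libraries held 0.195 and 0.0582 FPKM and both Cre-negative libraries were listed at 0, where 3 fragments would be 0.0865 FPKM in Cre-positive replicate 2 and 2.16 in Cre-negative replicate 1, so the order at E17.5 could not be told at this depth. In the adult 1 Cre-negative library held 564 FPKM. Ppp3r1 entered the fit through adult Cre-negative SC alone, the group where it was high, so the adult difference is a description.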

How the results depend on the processing

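Of 116 recounts of the members called, over 19 results and not counting single libraries left out, 102 gave the count reported or one within 1.5 times of it. With the replicate block, 2 members passed at P0.5 between Cre-positive and Cre-negative SC, 2 from P0.5 to P7.5, 2 in the change of the Cre difference from P0.5 to P7.5, 1 from early to late in Cre-positive SC and 1 in its difference from Cre-negative SC; the added member was Calm2 each time (adjusted p = 0.00822 at P0.5), and no member was lost. Fitting the P0.5 libraries alone also gave 2. A pseudocount of 0.1 gave 1 (Calm2) from early to late in Cre-positive SC and 2 (Camk2b and Camkv) against retina at P0.5. Leaving out the adult libraries with few genes gave 1 (Camk2a) for P7.5 to adult and for early to late in Cre-positive and in Cre-negative SC; the SC libraries left out there are the adult ones that list Camk2a at 0, so these calls follow from the choice. Leaving out 1 library at a time gave 0 to 1 for each of the Camkv results, for early to late in Cre-positive SC and its difference from Cre-negative SC, and against retina at E17.5 and P7.5, 0 to 2 for early to late in Cre-negative SC and 2 to 3 against retina at P0.5, where dropping P0.5 Cre-positive replicate 1 or either retina library gave 2. In the run-off libraries, reads without scaling gave 7 members lower in SC and 9 in retina, and median-ratio scaling gave 7 in retina; the cause of these changes was not tested beyond what each setting removes.

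The counts over all genes moved more. The lowest and highest over the alternatives were, for Cre-positive against Cre-negative SC from the first stage to the last, 0 and 865 (94 as reported), 448 and 2728 (1944), 0 and 55 (0), and 0 and 131 (9), then 231 and 1679 for E17.5 to P0.5 (1612), 273 and 1826 for P0.5 to P7.5 (1780), 0 and 93 for P7.5 to adult (5), 63 and 1768 (1588), 33 and 953 (299) and 0 and 1226 (826) for late minus early in Cre-positive SC, in Cre-negative SC and their difference, 188 and 2089 (1621) and 23 and 1329 (1285) for the changes of the Cre difference, 0 and 87 (39) for retina, and, for Cre-positive SC against retina by stage, 0 and 626 (83), 566 and 3370 (2193), 0 and 94 (1) and 0 and 136 (6). Where 1 library was left alone in a group, it was assumed to vary like the other groups. Cre-positive and Cre-negative animals were littermates, but the labels do not say that a replicate number marks a litter or day. The correlation of replicate deviations between Cre-positive and Cre-negative SC was 0.36, 0.41, 0.31 and 0.02 from the first stage to the last. Since the adult value was under 0.1 the numbers were not taken as pairs, although the 3 earlier stages were above it. At those stages the SE of the main fit thus holds any gap shared by a replicate number. With 2 libraries a group and adult SC depths of 561000 to 2260000 fragments, low members could not be compared in the adult.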
